A study of Mus musculus with 9 samples.

Results

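The keratin genes are the members of the mouse annotation whose symbol is Krt followed by a number, with the keratin-associated Krtap genes and Krtcap genes left out. Of 18193 genes with a probe set on the arrays, 48 were keratins, and where a keratin had several probe sets the one with the highest average signal across the 9 arrays stood for it. RNA from colonic mucosa of male C57BL/6 mice aged 6 weeks was hybridised to Affymetrix arrays, 3 from mice without the gastrin gene (Gas-/-, named GasKO here), 3 from hGas transgenic mice (hGAS) and 3 from wild-type mice (WT). The promoter and the cells that drive the transgene, the way the gastrin allele was removed and the number of mice behind an array are not given in the sources used here, so p-values measure the spread between arrays, which may be technical. The probe set of the targeted gene, Gast, lay between 1.99 and 2.14 in GasKO, 1.95 and 1.96 in hGAS and 1.93 and 1.97 in WT (log2). It was at background in every group and so checks neither the knockout nor the transgene. All 6 pan-epithelial, all 7 colonocyte and all 8 goblet cell markers reached log2 4 on every array, and all 5 smooth muscle markers did so as well. The summed linear level over the 9 arrays was 51063 to 61072 for smooth muscle and 58933 to 64462 for pan-epithelial markers. The markers therefore show epithelium in every sample but do not show that the samples were mucosa alone. Stratified keratins were raised on hGAS replicate 3 and, for fewer genes, on WT replicate 2, and the main values that these arrays move are given with and without them.

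Keratins build the intermediate filaments of epithelial cells. A filament needs a type I keratin paired with a type II keratin, and each kind of epithelium uses its own pairs. The type II gene Krt8 and the type I genes Krt18, Krt19 and Krt20 are the main keratins of intestinal epithelium, and mice without Krt8 can develop colitis. Stratified epithelia such as skin and oesophagus use other pairs, and Krt12 is the type I keratin of the corneal surface. Type I genes lie together on chromosome 11, in the cluster next to Gast, while type II genes and Krt18 lie on chromosome 15. Of the 48 keratins, 24 were on chromosome 11 and 24 on chromosome 15.

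The promoters below are those of Krt12 and Krt18, the keratins that differed between genotypes, and of Krt10 and Krt20, the coding genes on either side of Krt12. Each shows the 250 bases before the transcription start from RefSeq (build GRCm38.p6), 5′ to 3′ along the gene, with the TATA box letters TATAAA in capitals where they occur.
Krt12, chr11:99422260-99422509, minus strand: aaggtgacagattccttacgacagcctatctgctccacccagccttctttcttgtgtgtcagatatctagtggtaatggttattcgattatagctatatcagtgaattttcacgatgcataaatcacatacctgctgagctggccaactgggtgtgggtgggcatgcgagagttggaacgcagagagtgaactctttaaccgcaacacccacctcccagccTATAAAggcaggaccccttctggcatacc
Krt10, chr11:99389365-99389614, minus strand: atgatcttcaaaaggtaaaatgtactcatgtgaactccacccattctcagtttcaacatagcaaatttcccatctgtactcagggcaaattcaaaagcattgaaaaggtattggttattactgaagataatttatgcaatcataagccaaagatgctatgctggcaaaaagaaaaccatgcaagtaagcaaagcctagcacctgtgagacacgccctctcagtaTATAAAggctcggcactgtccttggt
Krt20, chr11:99438154-99438403, minus strand: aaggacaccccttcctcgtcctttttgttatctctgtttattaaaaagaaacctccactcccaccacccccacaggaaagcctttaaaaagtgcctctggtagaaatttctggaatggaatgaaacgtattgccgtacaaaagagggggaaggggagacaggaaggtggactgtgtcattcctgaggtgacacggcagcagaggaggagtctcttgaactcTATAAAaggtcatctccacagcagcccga
Krt18, chr15:102027966-102028215, plus strand: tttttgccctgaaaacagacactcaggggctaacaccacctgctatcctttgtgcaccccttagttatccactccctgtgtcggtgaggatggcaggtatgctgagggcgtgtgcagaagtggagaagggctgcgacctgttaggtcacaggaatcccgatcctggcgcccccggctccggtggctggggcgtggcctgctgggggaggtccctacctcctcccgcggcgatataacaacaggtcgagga
The letters TATAAA began 29 bases before the start in Krt12, 26 in Krt10 and 29 in Krt20, and were not in the Krt18 window. Counting both strands, TATAAA was present in 16 of 33 keratin promoter sequences (48.5%), against 12.4% of all 32851 promoter sequences of the same length. Hair and root sheath keratins at background on all arrays held most of the 16: Krt25, Krt26, Krt27, Krt28, Krt31, Krt32, Krt33b, Krt34, Krt71, Krt72, Krt73 and Krt84. In Krt72 and Krt84 the match was on the opposite strand, from 203 and 206 bases before the start. The letters TTTATG, which the intestinal CDX factors can bind, were present in 13 of the 33 (39.4%), against 10.8% of all. Most of these 13 belonged to hair and root sheath keratins (Krt28, Krt31, Krt32, Krt33b, Krt34, Krt75, Krt82 and Krt84), which were at background on all arrays. By their letters, a TATAAA match and a TTTATG match cannot share bases on either strand. Krt12 held 1 TTTATG match, on the opposite strand from 133 bases before the start, and Krt10 held 1 on the gene strand from 120 bases before it. Krt20 and Krt18 held none, and neither did Krt8 or Krt7. Krt23, also a simple epithelial keratin, held a match on the opposite strand from 32 bases before the start. The stratified keratins Krt13 and Krt24 held a match on the opposite strand as well. In all, 5 motifs were searched on both strands. Of the remaining ones, CACCC (Krüppel-like factors) was present in 81.8% of keratin sequences against 52.0% of all, TGANTCA (AP-1) in 6.1% against 6.7%, and GCCNNNGGC (AP-2) in 9.1% against 13.7%. The 33 sequences covered 32 of the 48 genes, and a match describes the letters only.

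Expression is given as deposited, in log2 units. A gene was tested if at least 3 arrays reached log2 4, a level under which values are near background. Of the 48 keratins, 11 passed, 7 reached log2 4 on only 1 or 2 arrays, and 30 stayed under it on all 9 arrays. All 6 simple epithelial keratins passed, 5 of 21 stratified keratins did (Krt10, Krt12, Krt13, Krt17 and Krt42), and none of the 20 hair and root sheath keratins did. The hair and root sheath keratins lay between 1.65 and 3.44 on every array, and 24 of the 30 keratins under log2 4 varied by less than 0.2 across all arrays. The remaining gene, Krt88, was placed in no list and lay between 2.63 and 2.70.

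The comparison of GasKO with WT sets mice without the gastrin gene beside wild-type mice. The loss of gastrin cannot be told apart here from any other difference of the knockout mice, including DNA linked to Gast on chromosome 11. Krt12 stood out among the keratins: its transcript was at background in WT and clearly measured on all 3 GasKO arrays. Krt18, the type I partner of Krt8, was slightly higher in GasKO, and Krt8, Krt19, Krt20 and Krt7 differed by no more than 0.04 (log2). In all, 2 of 11 tested keratins were called at an adjusted p under 0.05 (limma, Benjamini-Hochberg over 11273 genes), both higher in GasKO, where 12.1% of all genes tested were called, 6.64% as higher and 5.48% as lower. The median log2 change of the 11 keratins was -0.03, beside 0.007 for all genes tested. Groups did not overlap for 4 of the 11 (Krt10, Krt12, Krt18 and Krt23), beside 31.1% of all genes.

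Krt12 read 6.59, 5.36 and 6.25 on the GasKO arrays, 2.49, 2.34 and 2.47 on the hGAS arrays and 2.34, 2.37 and 2.32 on the WT arrays. Every GasKO array lay far above the other 6, and GasKO replicate 2 was the lowest of the 3. The mean was 6.07 ± 0.64 in GasKO against 2.34 ± 0.03 in WT (SD, n = 3 each), a log2 change of 3.72 (SE 0.25, 13.2-fold, limma adjusted p = 1.39e-05). Because the WT value is at background, the fold depends on the background level. The gene passed the filter only through its GasKO arrays. Leukocyte markers were also higher in GasKO than in WT: all 5 tested (Ptprc, Cd79a, Ms4a1, Lyz2 and Cd74) were called, where 6.64% of all genes were called as higher. The T cell gene Cd3e was under log2 4 on all arrays. The summed linear level of the 6 leukocyte markers listed was 7887 to 8809 in GasKO, 3815 to 4504 in hGAS and 5245 to 5444 in WT. Their part in the Krt12 difference was not tested.

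The second probe set of Krt12 read 6.25, 4.29 and 5.99 in GasKO, 2.18, 2.21 and 2.19 in hGAS and 2.15, 2.19 and 2.17 in WT. It gave the same order of arrays within GasKO and a log2 change of 3.34 (SE 0.41, limma adjusted p = 7.15e-04 over 19822 probe sets). Both probe sets separated GasKO from the other genotypes.

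**Figure D1:**
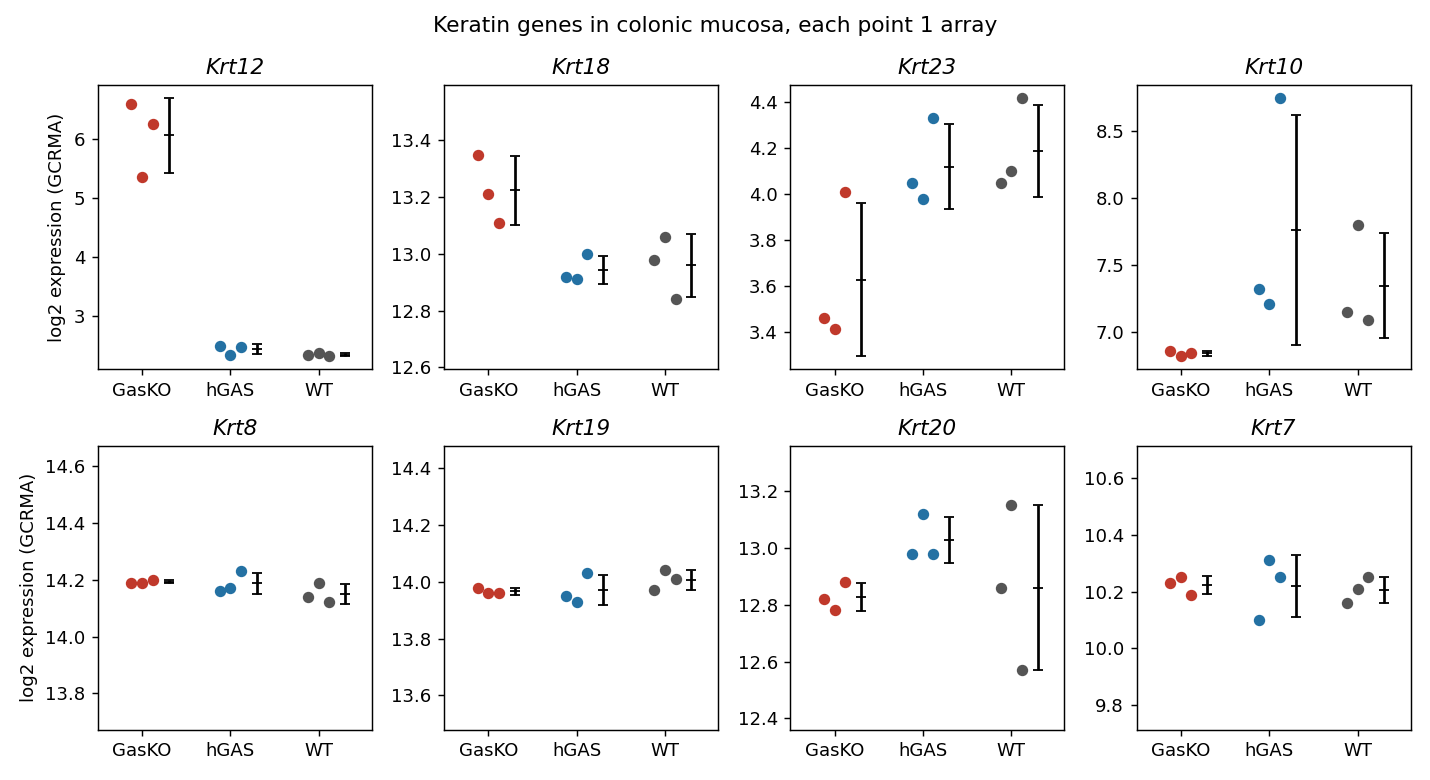
Log2 expression of 8 keratin genes on each array, with genotype on the horizontal axis and a separate vertical scale for each gene; points are arrays and bars are mean ± SD (n = 3). Krt12 sits between 5.36 and 6.59 in GasKO and at 2.49 or lower elsewhere, while Krt8, Krt19 and Krt7 overlap in all genotypes.

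The keratins beside Krt12 on chromosome 11 were not called. In the gene order of the RefSeq table (assembly GRCm38.p6), Krt10 and Krt20 flank Krt12, and 58 protein-coding genes lie between Krt12 and Gast. Krt10 had a log2 change of -0.51 (95% interval -1.32 to 0.30, limma adjusted p = 0.415), which was -0.28 without WT replicate 2 (adjusted p = 0.739), and Krt20 of -0.03 (-0.30 to 0.23, adjusted p = 0.902) in GasKO against WT. Over the 23 other chromosome 11 keratins with a probe set, tested or not, the difference of means ran from -1.17 to 0.11, and 17 lay within 0.05 of 0. Of these 17, all but Krt19 and Krt20 were under log2 4 on every array. Values at background can hardly differ, so their small differences say little about the cluster. The keratins nearest to Gast were Krt42, Krt17 and Krt16, with 1, 2 and 3 coding genes between. Krt42 averaged 5.71 ± 0.03 in GasKO, 5.69 ± 0.01 in hGAS and 5.60 ± 0.12 in WT (SD, n = 3 each), a log2 change of 0.11 in GasKO against WT (limma adjusted p = 0.457). Krt17, a keratin of skin appendages, averaged 3.98 ± 0.14 in GasKO, 4.36 ± 0.47 in hGAS and 4.14 ± 0.09 in WT, a change of -0.16 (limma adjusted p = 0.68). The hGAS arrays of Krt17 read 4.09, 4.07 and 4.90, so replicate 3 set the higher hGAS mean. Its change in hGAS against WT was 0.22, and -0.06 without hGAS replicate 3. Krt16 was at background throughout, between 2.24 and 2.30.

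Between the first keratin of the cluster and Gast lie 39 coding genes that are not keratins, of which 13 had a probe set and 0 passed the filter. On the far side of Gast, 21 of the next 30 coding genes were tested and 3 were called in GasKO against WT, where 12.1% of all genes were: Cnp (log2 0.29), the interferon-induced helicase gene Dhx58 (1.77) and Mlx (-0.24). Jup, which encodes the desmosomal protein plakoglobin and is the second coding gene beyond Gast, had a log2 change of -0.13 (limma adjusted p = 0.353).

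**Figure D2:**
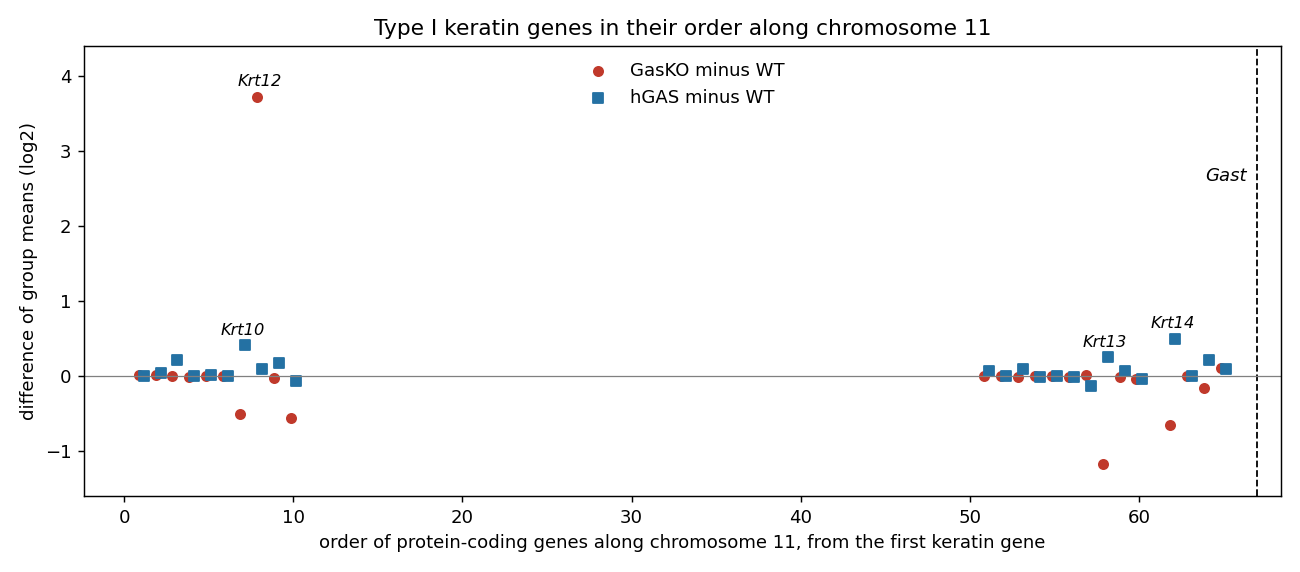
Differences of group means (log2, vertical axis) for the 24 keratin genes with a probe set on chromosome 11, placed by their order among protein-coding genes from the first keratin of the cluster (horizontal axis), with Gast as the dashed line; circles are GasKO minus WT and squares hGAS minus WT. In GasKO minus WT, Krt12 stands at 3.72 and the other 23 keratins lie between -1.17 and 0.11, many of them at background on every array.

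Krt18 read 13.35, 13.21 and 13.11 in GasKO, 12.92, 12.91 and 13.00 in hGAS and 12.98, 13.06 and 12.84 in WT. All GasKO arrays exceeded all others, though the lowest GasKO array (13.11) was close to the highest WT array (13.06). The log2 change against WT was 0.26 (SE 0.07, 1.20-fold, limma adjusted p = 0.0407), and the call was lost when any 1 array other than GasKO replicate 3 or WT replicate 2 was left out, with an adjusted p of up to 0.14. Epcam, a pan-epithelial surface marker, was also higher in GasKO, at 14.02 ± 0.01 against 13.67 ± 0.05 in WT (SD, n = 3; log2 change 0.35, limma adjusted p = 5.26e-04). It was the 1 called gene of 6 pan-epithelial markers in GasKO against WT, where 12.1% of all genes were called. The summed linear level of these 6 was 62192 to 64462 in GasKO, 58933 to 60238 in hGAS and 59882 to 60899 in WT. Cdh1 changed by -0.03 (log2), Cldn3 by -0.05, Cldn7 by 0.03, Lgals4 by -0.03 and Vil1 by 0.01 in GasKO against WT. The higher sum in GasKO therefore rests mainly on Epcam. In bulk tissue, fewer cells of a type and less RNA per cell cannot be told apart, and the part of epithelial content in the Krt18 difference was not tested.

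Krt8, the type II partner of Krt18, read 14.19, 14.19 and 14.20 in GasKO, 14.16, 14.17 and 14.23 in hGAS and 14.14, 14.19 and 14.12 in WT, and its log2 change in GasKO against WT was 0.04 (95% interval -0.04 to 0.12). The 2 further probe sets of Krt8 gave changes of 0.00 and 0.02. The groups overlapped in Krt8. Krt19, a type I keratin of simple epithelia, read 13.98, 13.96 and 13.96 in GasKO, 13.95, 13.93 and 14.03 in hGAS and 13.97, 14.04 and 14.01 in WT, and differed by -0.04 (-0.13 to 0.04) in GasKO against WT. Krt7, a type II keratin of glandular and duct epithelia, read 10.23, 10.25 and 10.19 in GasKO, 10.10, 10.31 and 10.25 in hGAS and 10.16, 10.21 and 10.25 in WT, and differed by 0.02 (-0.12 to 0.15). The groups overlapped in both genes. Krt20, which marks differentiated cells of the intestinal surface, read 12.82, 12.78 and 12.88 in GasKO, 12.98, 13.12 and 12.98 in hGAS and 12.86, 13.15 and 12.57 in WT. The WT arrays of Krt20 spanned both other groups. The intervals for these 4 genes excluded changes beyond 0.30 (log2) in either direction.

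Krt23, a type I keratin close to the detection level, read 3.46, 3.41 and 4.01 in GasKO, 4.05, 3.98 and 4.33 in hGAS and 4.05, 4.10 and 4.42 in WT. GasKO replicate 3 was close to the other genotypes and the 2 other GasKO arrays lay lower. The log2 change in GasKO against WT was -0.56 (SE 0.18, limma adjusted p = 0.0747), and without GasKO replicate 3 it was -0.75 (adjusted p = 0.0186). Of the 9 fits that left out 1 array, only this 1 called Krt23. The changes ran from -0.75 to -0.45, with a limma adjusted p of up to 0.219.

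Several stratified keratins were high on 1 or 2 arrays rather than in a genotype. Counting the 21 stratified keratins at log2 4 or more, the GasKO arrays had 3, 4 and 4, the hGAS arrays 4, 3 and 11 and the WT arrays 3, 7 and 3. The high counts were those of hGAS replicate 3 and WT replicate 2. Of the 7 keratins that reached log2 4 on only 1 or 2 arrays, all 7 did so on hGAS replicate 3, 3 also did on WT replicate 2, and none did on any other array. On hGAS replicate 3 these 7 lay between 5.61 and 6.77. The 3 highest were Krt5, Krt6a and Krt1, and the other members of pairs below were named after their values were seen.

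Krt5 and Krt14, the pair of basal cells in stratified epithelia, were high on 1 array. Krt5 read 3.28, 3.42 and 3.42 in GasKO, 3.42, 3.42 and 6.77 in hGAS and 3.42, 3.57 and 3.40 in WT. Krt14 read 2.66, 2.61 and 2.59 in GasKO, 2.68, 2.66 and 5.99 in hGAS and 2.68, 3.79 and 3.34 in WT. Only hGAS replicate 3 stood well above background for both genes, though a further Krt14 probe set reached no more than 3.73 there and another stayed at 2.15 or under.

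Krt1 and Krt10, the pair of cornifying cells above the basal layer, showed the same array. Krt1 read 2.10, 2.11 and 2.12 in GasKO, 2.13, 2.10 and 6.49 in hGAS and 2.12, 2.39 and 2.09 in WT. Krt10 was measured on all 9 arrays, at 6.86, 6.82 and 6.84 in GasKO, 7.32, 7.21 and 8.75 in hGAS and 7.15, 7.80 and 7.09 in WT. Its GasKO arrays lay below the other 6 and close together, while hGAS replicate 3 and WT replicate 2 were the 2 highest.

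Krt4 and Krt13, the pair of wet, non-cornifying stratified epithelia such as the oesophagus, were high on both of those arrays. Krt13 read 3.15, 3.16 and 3.17 in GasKO, 4.06, 3.14 and 6.54 in hGAS and 3.17, 6.35 and 3.47 in WT. It passed the filter only through hGAS replicates 1 and 3 and WT replicate 2. Krt4 read 2.88, 2.92 and 3.02 in GasKO, 3.62, 3.11 and 6.20 in hGAS and 2.94, 6.18 and 3.96 in WT. In GasKO against WT the Krt13 change was -1.17 (limma adjusted p = 0.478) with overlapping groups, and it was -0.16 without WT replicate 2 (adjusted p = 0.938). A second probe set of Krt4 put the same 2 arrays highest, at 5.66 on hGAS replicate 3 and 5.11 on WT replicate 2, but the 2 further probe sets of Krt13 stayed between 2.11 and 2.23 on all arrays. The wound-inducible type II genes Krt6a and Krt6b were high on the same arrays. Krt6a read 6.52 on hGAS replicate 3 and 5.79 on WT replicate 2, and Krt6b read 5.77 and 6.10, with GasKO arrays between 2.18 and 3.09 for both. On WT replicate 2, Krt4, Krt13, Krt6a and Krt6b reached log2 4 while Krt5, Krt14 and Krt1 did not. All of these genes did so on hGAS replicate 3, as did Krt79, a keratin of hair canals and sebaceous ducts, at 5.61 there and 2.48 or under elsewhere.

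**Figure D3:**
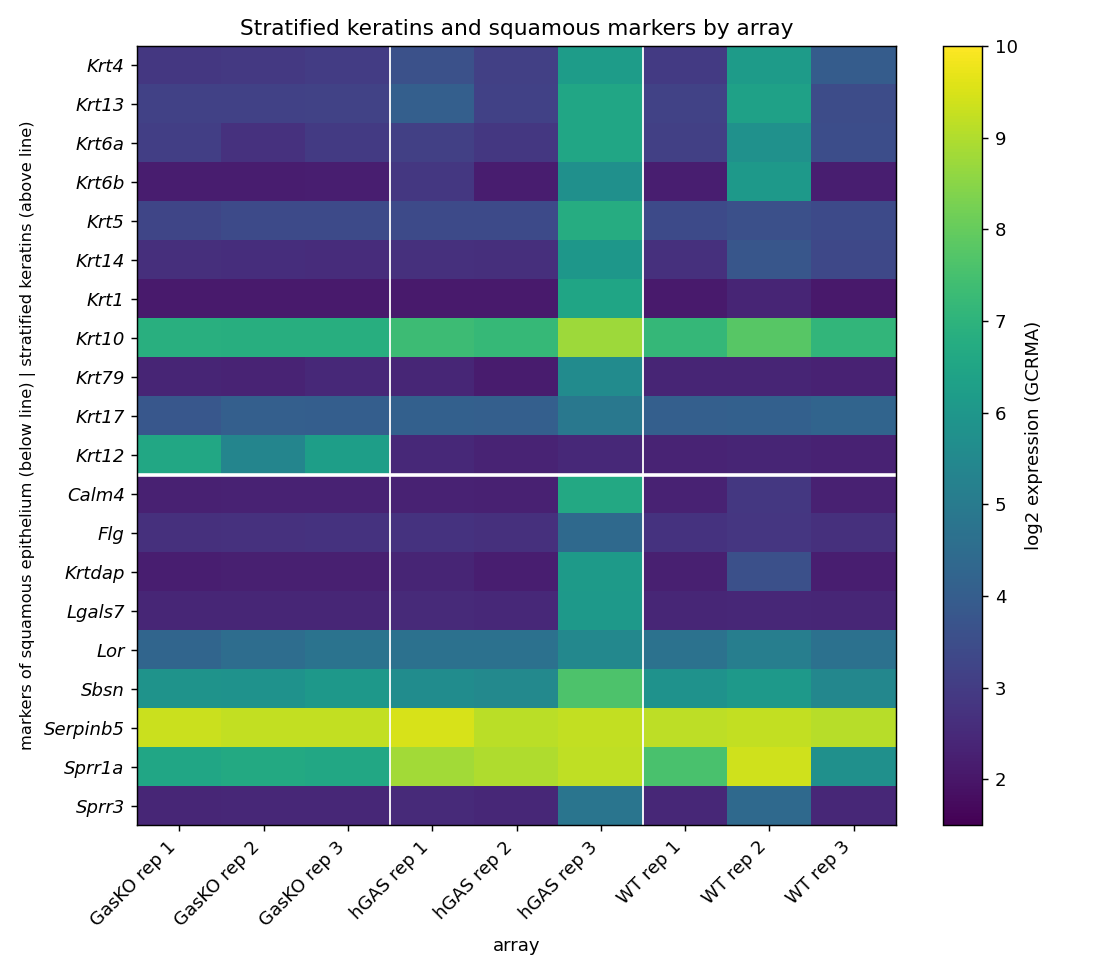
Log2 expression by array (columns, grouped by genotype) of 11 stratified keratins (above the white line) and of the 9 squamous epithelium markers that reached log2 4 on any array (below it). The hGAS replicate 3 column is bright for Krt4, Krt13, Krt6a, Krt6b, Krt5, Krt14, Krt1 and Krt79, WT replicate 2 for the first 4 of these, and Krt12 is bright in the GasKO columns.

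Several other markers of squamous epithelium were high on hGAS replicate 3, and fewer on WT replicate 2. Of 19 with a probe set, 9 reached log2 4 on hGAS replicate 3, 5 on WT replicate 2 and 4 on each of the other 7 arrays, and 10 stayed under it on all arrays, among them Trp63, Dsg1a, Dsc1, Dsc3 and Ivl. Their summed linear level was 866 to 898 in GasKO, 1224 to 1783 in hGAS and 750 to 1496 in WT, with the highest values of hGAS and WT on hGAS replicate 3 and WT replicate 2. Most of this sum came from Sprr1a and Serpinb5 on every array. It was also above GasKO on hGAS replicates 1 and 2 (1333 and 1224), so the sum does not single out the arrays with high stratified keratins. Calm4, an epidermal calcium-binding protein gene, read 6.64 on hGAS replicate 3 and 2.87 or under elsewhere. Lgals7 read 6.09 there and Krtdap 6.14, against 3.57 for Krtdap on WT replicate 2. Sprr3, a cornified envelope gene, read 4.82 on hGAS replicate 3 and 4.42 on WT replicate 2. The 4 markers at log2 4 on every array were Lor, Sbsn, Sprr1a and Serpinb5. Sprr1a, another cornified envelope gene, read 6.52, 6.65 and 6.59 in GasKO, 8.82, 8.98 and 9.17 in hGAS and 7.55, 9.39 and 5.75 in WT. All hGAS arrays exceeded all GasKO arrays in Sprr1a (log2 difference 2.40, limma adjusted p = 0.0421), and the WT arrays spanned both. Sprr1a was the 1 squamous marker called in any comparison. It was 1 of 4 tested in hGAS against GasKO, where 16.6% of all genes were called. Serpinb5 lay between 9.08 and 9.48 on all arrays, with its highest value on hGAS replicate 1. None of the 5 hair follicle markers reached log2 4 on any array. The part of squamous tissue in the sampled mucosa was not tested.

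The comparison of hGAS with WT sets the transgenic mice beside wild-type mice, and its WT arrays are those already set against GasKO. None of 11 tested keratins was called by limma and 0 had an unadjusted p under 0.05, where 1.16% of all genes tested were called, 0.639% as higher and 0.523% as lower. Without WT replicate 2, 1 keratin had an unadjusted p under 0.05 and none was called. No keratin separated the groups without overlap, beside 17.7% of all genes. The median log2 change was 0.09, beside 0.008 for all genes. Krt12 was at background in both, at 2.43 ± 0.08 in hGAS and 2.34 ± 0.03 in WT (SD, n = 3 each). For Krt8, Krt7, Krt18, Krt19 and Krt20 the 95% intervals lay within -0.17 and 0.43 (log2). The Krt20 change of 0.17 was 0.31 without WT replicate 2 (limma adjusted p = 0.156) and 0.33 without both that array and hGAS replicate 3. The Krt10 change of 0.41 was -0.08 without hGAS replicate 3 and 0.15 without both that array and WT replicate 2. The Krt13 change of 0.25 was -0.73 without hGAS replicate 3, -0.33 without WT replicate 1, -0.17 without WT replicate 3, 1.26 without WT replicate 2 and 0.28 without both hGAS replicate 3 and WT replicate 2.

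The comparison of hGAS with GasKO sets the 2 altered genotypes side by side, and uses the same GasKO and hGAS arrays as the comparisons above. It called 2 of 11 keratins, both lower in hGAS, where 16.6% of all genes tested were called, 8.05% as higher and 8.51% as lower. Krt12 averaged 2.43 ± 0.08 in hGAS and 6.07 ± 0.64 in GasKO (SD, n = 3 each), a difference of -3.63 (SE 0.25, limma adjusted p = 1.39e-05), and its second probe set gave -3.31 (adjusted p = 6.05e-04). Krt18 differed by -0.27 (SE 0.07, limma adjusted p = 0.0277), and this call was lost without GasKO replicate 1 or 2 or hGAS replicate 1 or 2, with an adjusted p of up to 0.0946. Epcam differed in the same direction, at -0.36 (limma adjusted p = 3.54e-04). Groups did not overlap for 4 of the 11 (Krt10, Krt12, Krt18 and Krt20), beside 36.7% of all genes.

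Krt10 was higher in every hGAS array than in every GasKO array, at 7.76 ± 0.86 in hGAS and 6.84 ± 0.02 in GasKO (SD, n = 3 each), with a log2 difference of 0.92 (limma adjusted p = 0.116). Without hGAS replicate 3 the Krt10 difference was 0.42 (adjusted p = 0.186), and with WT replicate 2 also left out it was 0.42 (adjusted p = 0.0143), a setting chosen after seeing the data. Krt23 differed by 0.49 (limma adjusted p = 0.0923). With the replicate number as a block, Krt23 was called (limma adjusted p = 0.0133), as it was without GasKO replicate 3 (0.69, adjusted p = 0.0233). These were the only 2 of 20 alternatives that called it, with log2 differences of 0.39 to 0.69 and a limma adjusted p of up to 0.257. The labels do not say that replicate numbers pair arrays. Krt20 stood at 13.03 ± 0.08 in hGAS and 12.83 ± 0.05 in GasKO (SD, n = 3 each), a difference of 0.20 (limma adjusted p = 0.298). Krt13 differed by 1.42 (limma adjusted p = 0.342), and by 0.44 to 2.14 when 1 array was left out, never called.

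**Figure D4:**
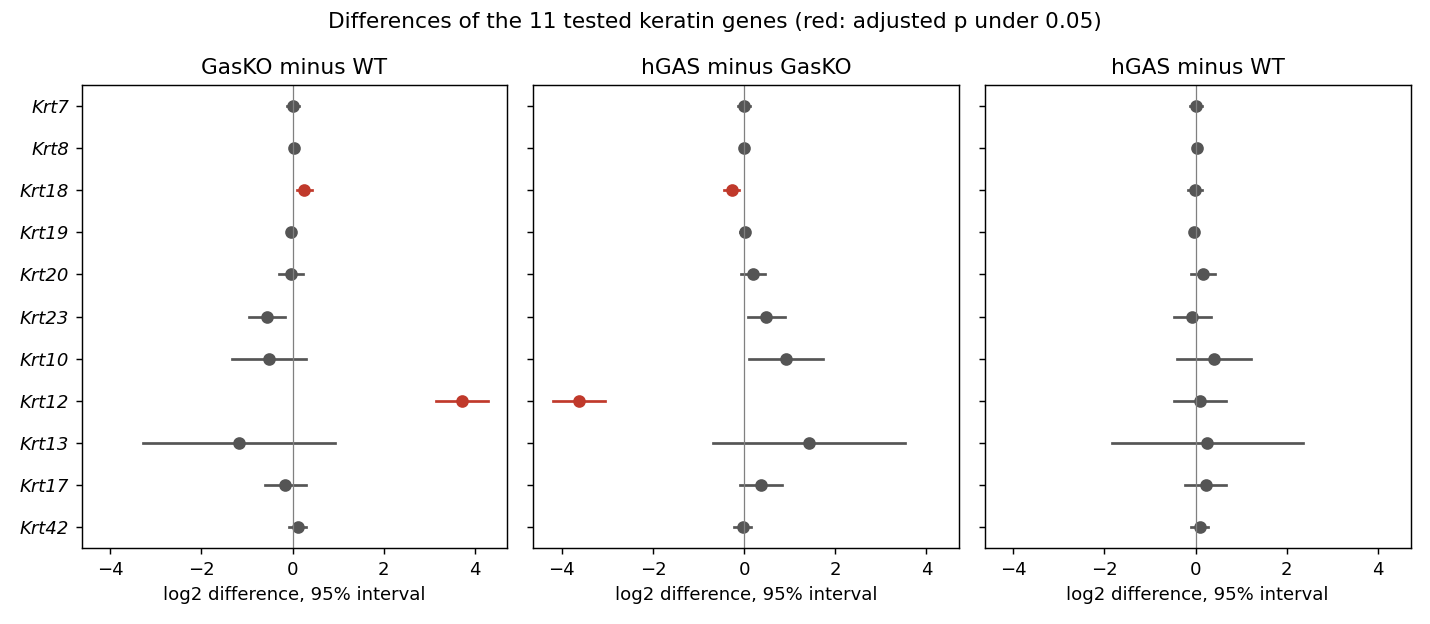
Log2 differences with 95% intervals (horizontal axis) of the 11 tested keratins (rows) in the 3 comparisons (panels), with called genes in red. Krt12 stands at 3.72 in GasKO minus WT and -3.63 in hGAS minus GasKO, Krt18 is the only other red gene, and the interval of Krt13 is the widest in each panel.

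Genes that anchor or bind keratin filaments were set beside the keratins. Among desmosome and cytolinker genes, 2 of 13 tested rose in GasKO against WT, where 6.64% of all genes were called as higher, and the list median was 0.08 beside 0.007 for all genes. These were Pkp1, a plakophilin of the desmosomal plaque, at 9.42 ± 0.22 in GasKO and 8.83 ± 0.18 in WT (SD, n = 3 each; log2 change 0.59, limma adjusted p = 0.0178), and Pkp4, another plakophilin, at a log2 change of 0.23 (adjusted p = 0.0131). Dsp, the desmoplakin gene that ties keratin to the plaque, had a log2 change of 0.13 (limma adjusted p = 0.299) and Plec, the plectin gene, of -0.03 (adjusted p = 0.886). In hGAS against GasKO, where 16.6% of all genes were called, 1 of 13 was, Pkp1 at -0.79 (limma adjusted p = 0.00356). In hGAS against WT, where 1.16% of all genes were called, 0 of 13 were.

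Among 9 genes whose products bind or regulate keratins, 2 were called in GasKO against WT (12.1% of all genes) and 3 in hGAS against GasKO (16.6% of all genes). Pof1b, an actin-binding protein of cell junctions, rose in GasKO to 12.40 ± 0.04, against 11.81 ± 0.21 in WT (SD, n = 3 each; log2 change 0.59, limma adjusted p = 0.00381). Sfn, a 14-3-3 protein that binds Krt17, fell to 8.37 ± 0.18 in GasKO, against 9.02 ± 0.38 in WT (log2 change -0.65, adjusted p = 0.0424). In hGAS against GasKO, Pof1b differed by -0.52 (limma adjusted p = 0.0063) and Sfn by 0.68 (adjusted p = 0.0295). Tradd, an adaptor of tumour necrosis factor signalling, differed by -0.22 (limma adjusted p = 0.0147). Of 11 other intermediate filament genes tested, Synm, an intermediate filament gene of muscle, fell by 0.38 in GasKO against WT (limma adjusted p = 0.0233), and the other 10, with Vim at 0.32 and Des at -0.29, were not called. Of 7 intestinal and epithelial transcription factor genes tested, none was called in any comparison, with Cdx2 at 0.50 (limma adjusted p = 0.167) and Klf4 at -0.08 (adjusted p = 0.203) in GasKO against WT. No member of these lists was called in hGAS against WT.

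Probe design limits some of these values. The probe sets used for Krt4, Krt8, Krt14, Krt42, Krt76 and Krt82, and the second probe set of Krt12, are of classes whose probes can match related transcripts, and keratins are close in sequence. For Krt42 the probe set used read 5.46 to 5.74, while its other probe set read 2.70 to 2.78 on all arrays. RefSeq holds 6 further keratins, Krt9, Krt39, Krt40, Krt74, Krt87 and Krt90, that had no probe set here.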

How the data were processed

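Expression was measured on 9 arrays, 3 per genotype. The authors' deposited values are log2 signals made with GCRMA, per the submitters' processing notes, which corrects background from probe sequence and normalises by quantiles, so a shift common to all genes would be removed. Its version and the genome build are not given in the sources used here, scanner files were not used, and the number of arrays limits the precision. Array medians were 4.13 to 4.16. Genes were named from the platform's annotation, which gave 34945 of 45101 probe sets 1 gene, and 34741 of these matched RefSeq (GRCm38.p6) by Entrez number. Control probe sets and those not naming exactly 1 gene were not used, including 1 shared by Krt17 and Krt14.

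All 9 arrays entered 1 model of genotype, without covariates, in limma 3.58.1 (R 4.3.3), with an eBayes variance trend (6 residual and 3.47 prior degrees of freedom), 2-sided, with Benjamini-Hochberg adjustment over 11273 genes and calls at an adjusted p under 0.05. The fit was tested on simulated data. Deviations of same-numbered hGAS and GasKO arrays from their group means correlated at 0.117, 0.201 and 0.267. In each of the other comparisons at least 1 pair was under 0.1. The labels name no pairing, so the replicate block, fitted to all 9 arrays, served only as an alternative. All tested keratins are named, those called and the simple ones by array; of those not passing, the 3 highest; and called members of the desmosome, keratin-binding, intermediate filament and transcription factor lists. Cell type markers are given by counts and summed levels, and single markers were named after their values were seen. Keratins and gene lists were chosen with earlier results of these data known. Alternatives covered the filter, normalization, probe set choice, variance prior, arrays in the fit, array weights, a replicate block and leaving out arrays. Figures used matplotlib 3.10.9.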

Additional observations from a re-analysis of the deposited data

How the results depend on the processing

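Over 660 keratin values under the alternatives, 633 kept their direction and 27 turned, none of them called in either fit. Krt12 kept its call in GasKO against WT (3.46 to 4.08) and in hGAS against GasKO (-3.99 to -3.37) in all 20 alternatives that tested it. Krt18 was called in 9 of 21 alternatives in GasKO against WT (0.20 to 0.32) and in 15 of 21 in hGAS against GasKO. The count of called keratins became 1 with no filter, with the filter at log2 6 and with eBayes without trend in both of these comparisons, and became 1 in GasKO against WT with the 6 arrays of the comparison alone, with array weights and without hGAS replicate 3 and WT replicate 2 together. Leaving out 1 array gave 1 to 3 in both. Fewer genes passed at log2 6, so Krt12 was not tested there, and the cause of the other changes was not tested. Krt20 was called in hGAS against GasKO in the fit to those 6 arrays (adjusted p = 0.0453).

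Over all genes, leaving out 1 array gave 888 (without GasKO replicate 1) to 1375 calls in GasKO against WT, 26 (without hGAS replicate 1) to 104 in hGAS against WT, and 1219 (without GasKO replicate 3) to 1996 in hGAS against GasKO. The 131 calls in hGAS against WT became 58 with no filter, 27 with 6 arrays and 283 with the replicate block. Without hGAS replicate 3 and WT replicate 2, chosen after seeing the data, GasKO against WT had 845.

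With the replicate number as a block, 3, 0 and 3 keratins were called in GasKO against WT, hGAS against WT and hGAS against GasKO, the addition being Krt23 (adjusted p = 0.0099 in GasKO against WT). In hGAS against GasKO, 6 of 6 arrays correlated best with their own number, against 4 of 6 in GasKO against WT and 5 of 6 in hGAS against WT. The correlations were weak and the labels name no pairing. The block changed no other keratin call.

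Directions turned for these changes, none of them called. Leaving out 1 array, Krt20 ran from -0.18 to 0.11 and Krt7 from -0.01 to 0.04 in GasKO against WT. In hGAS against WT, Krt10 ran from -0.08 to 0.69, Krt13 from -0.73 to 1.26, Krt17 from -0.06 to 0.36, Krt18 from -0.07 to 0.03, Krt23 from -0.17 to 0.05 and Krt7 from -0.04 to 0.07. In hGAS against GasKO, Krt19 ran from -0.02 to 0.03, Krt7 from -0.05 to 0.05 and Krt8 from -0.03 to 0. Krt23 was 0.01 with array weights and Krt7 was 0 with median centring in hGAS against WT, and Krt8 was 0.01 with quantile normalization in hGAS against GasKO. Without hGAS replicate 3 and WT replicate 2 together, Krt20 was 0.11 in GasKO against WT, Krt17 -0.08, Krt18 0.01 and Krt7 0 in hGAS against WT, and Krt19 -0.02 in hGAS against GasKO, while Krt23 kept its direction at -0.22 in hGAS against WT. The Krt13 change in GasKO against WT kept its direction and was -0.16 without WT replicate 2. Values under log2 4 lie near background and limit what can be said of the 30 keratins under it on all 9 arrays. The 7 others that did not pass the filter reached log2 4 on only 1 or 2 arrays.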
